A study of Homo sapiens with 8 samples.

Results

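The 37 genes encoded in human mitochondrial DNA were followed in 2 T-cell acute lymphoblastic leukemia (T-ALL) lines exposed to PKF118-310, a small-molecule antagonist of the complex that β-catenin forms with TCF transcription factors. Members were all rows whose gene name begins with MT-, 37 of the 57189 genes counted. They were 2 ribosomal RNAs (rRNAs), 22 transfer RNAs (tRNAs) and 13 protein-coding genes, each counted here as 1 messenger RNA (mRNA). MT-ATP8 with MT-ATP6, and MT-ND4L with MT-ND4, are each carried on a shared mRNA, so not all 13 are separate molecules. The 4 groups were control CUTLL1 cells (labelled CUTTL1), CUTLL1 cells given PKF118-310, control TIB153 cells and TIB153 cells given PKF118-310. Controls received placebo, exposure was to 1 µM for 24 h, and each group was 1 library of polyadenylated RNA sequenced in 2 lanes. The lanes of a library were summed, since they repeat the sequencing and not the culture. The lane files hold 1 library per group of each established line, so in them the lines are the only replication of the treatment.

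The mitochondrial genome is read from both strands as long precursor RNAs that run through rRNA, mRNA and tRNA genes. The tRNAs are cut out of the precursor, which frees the rRNAs and mRNAs between them, and most mRNAs then receive short poly(A) tails. The encoded proteins are core subunits of respiratory complexes I, III and IV and of ATP synthase (complex V). All other subunits, and every factor that copies, transcribes and processes mitochondrial DNA and RNA, come from nuclear genes. The mRNA for ND6 is the only one read from the opposite strand.

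The genes lie close together on the mitochondrial chromosome (MT, build hg38), and 2 pairs of mRNA genes share more than 1 base. MT-ATP8 and MT-ATP6, which encode subunits of complex V, share 46 bases at MT:8527-8572 on the + strand. MT-ND4L and MT-ND4, which encode subunits of complex I, share 7 bases at MT:10760-10766, and MT-ATP6 and MT-CO3 share base 9207. The shared bases are shown in capitals with 20 bases of each neighbour in lower case, because a read inside them belongs to both genes, and no source used here tells how such reads were counted. The tRNA gene MT-TL1 (MT:3230-3304) is shown as well: it separates the rRNA genes from the first mRNA gene, MT-ND1, and is known to hold the binding site of the termination factor MTERF1. Sequences are from GENCODE transcripts on hg38.
MT-ATP8/MT-ATP6 overlap: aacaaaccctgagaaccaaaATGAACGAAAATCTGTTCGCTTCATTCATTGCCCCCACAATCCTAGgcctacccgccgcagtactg
MT-ND4L/MT-ND4 overlap: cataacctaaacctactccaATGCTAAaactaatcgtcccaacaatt
MT-TL1: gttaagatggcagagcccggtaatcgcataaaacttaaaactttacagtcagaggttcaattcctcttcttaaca

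The ends of the mRNA genes show where a poly(A) tail is needed to complete the reading frame. Of the 13 genes, 6 end in T or TA, which becomes a TAA stop codon only once A residues are added. The last 24 bases of these 6 are printed with the incomplete stop in capitals, followed by MT-CO2 and MT-ND5, whose genes encode a complete stop.
MT-ND1: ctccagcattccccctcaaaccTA
MT-ND2: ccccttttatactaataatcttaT
MT-CO3: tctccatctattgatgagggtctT
MT-ND3: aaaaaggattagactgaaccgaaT
MT-ND4: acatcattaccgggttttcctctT
MT-CYB: aaaacaaaatactcaaatgggccT
MT-CO2: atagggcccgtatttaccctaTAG
MT-ND5: ctaaccctactcctaatcacaTAA

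Library totals lay between 7609427 and 8140391 counts. The lanes of each library differed by no more than sampling noise over the mitochondrial genes (chi-square p from 0.184 to 0.82). All 9 T-lineage markers had reads in every library, with summed levels from 2251 to 2785 CPM (counts scaled by TMM to a common library size). The 10 markers of other cell types summed to 65.3 to 237 CPM, of which PECAM1 and CD79A made up the most, and MS4A1 and EPCAM were at 0 in all libraries. In the test described below, 3 of the 9 T-lineage markers fell with PKF118-310 (CD3G, CD247 and CD7) and 0 rose, where 6.78% of all genes tested fell. Within CUTLL1, 8 markers were lower beyond counting error and 1 (PTPRC) higher, where 23.9% and 23.3% of all genes tested were. Within TIB153, 5 were lower and 3 (CD3D, CD5 and LCK) higher, where 28.7% and 25.2% of all genes tested were. The part of these markers in the mitochondrial results was not tested.

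With PKF118-310 the mitochondrial rRNAs took a larger share of each library, and the sum of the mRNAs did so in TIB153 cells only. The share of all counts that fell in the 2 rRNAs was 0.545% in control and 1.10% in treated CUTLL1 cells, and 0.806% and 1.58% in TIB153 cells. The share in the 13 mRNAs was 3.64% in control and 2.68% in treated CUTLL1 cells, but 3.21% and 3.47% in TIB153 cells. In TIB153, MT-ND1 and MT-ND2 together went from 0.429% to 0.743%. Of the 13 mRNAs there, 7 were lower and 5 higher beyond counting error after scaling. The rRNA shares of both treated libraries thus exceeded both controls, whereas the mRNA shares of controls and treated cells overlapped. In bulk samples, changes in mitochondrial number, in cells that express a gene and in RNA per cell cannot be told apart for a class taken alone. Lengths of poly(A) tails, on which capture depends, were not measured.

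After TMM scaling, the log2 ratio of treated over control for the summed rRNAs was 0.97 in CUTLL1 (95% interval 0.95 to 0.98) and 0.91 in TIB153 (0.90 to 0.93). For the summed mRNAs it was -0.49 in CUTLL1 (-0.50 to -0.48) and 0.05 in TIB153 (0.04 to 0.06). These intervals are exact binomial intervals and cover counting error only, since each group held 1 library. All 37 genes together took 4.18% and 3.78% of counts in control and treated CUTLL1 cells, against 4.01% and 5.06% in TIB153 cells. Within a library, rRNA counts were 0.150 times the mRNA counts in control and 0.411 times in treated CUTLL1 cells. The same ratio was 0.251 in control and 0.456 in treated TIB153 cells, and this ratio does not depend on any scaling between libraries.

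**Figure D1:**
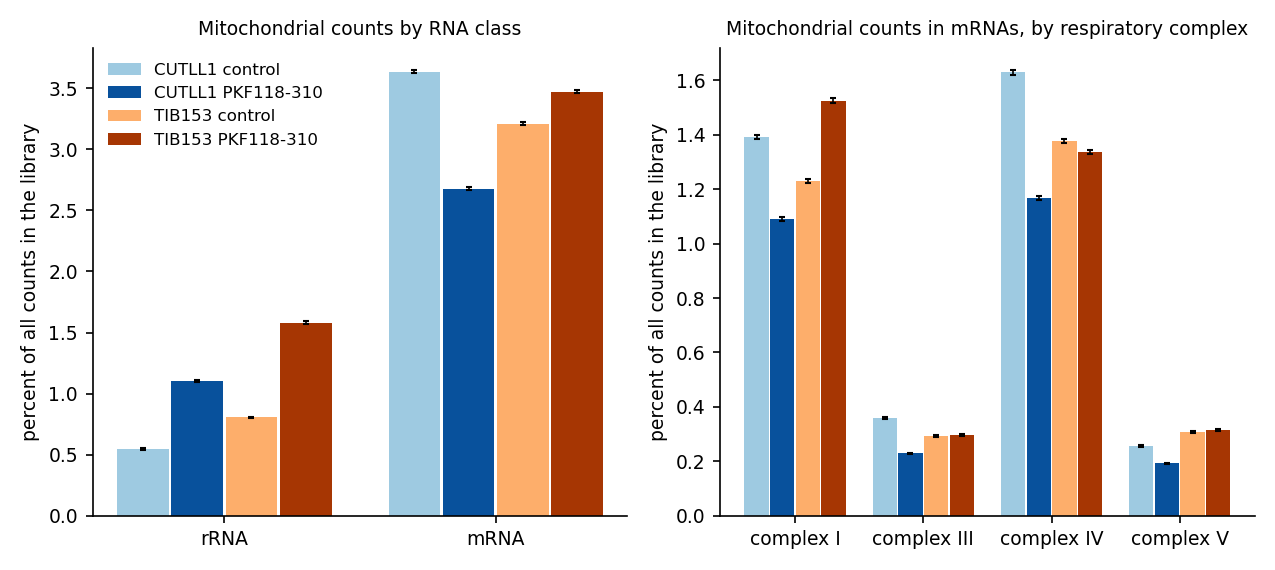
Percent of all counts of a library that fell in mitochondrial rRNAs and mRNAs (left) and in mRNAs of each respiratory complex (right), with Wilson 95% intervals for counting error. The rRNA bars of both treated libraries (1.10% and 1.58%) stand above both control bars (0.545% and 0.806%), while the treated mRNA bar is below its control in CUTLL1 and above it in TIB153.

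A test across both lines (edgeR's quasi-likelihood test with cell line as a block, Benjamini-Hochberg adjusted over 13280 genes) could be run on 18 members: the 2 rRNAs, the 13 mRNAs and 3 tRNAs. Of these, 2 rose and 4 fell, where 6.11% of all genes tested rose and 6.78% fell. MT-RNR2 and MT-RNR1 rose, and MT-ND5, MT-ND3, MT-ND6 and MT-CO3 fell. The median log2 change of the 13 mRNAs was -0.28 and that of all genes tested was 0.00. Scaling by total counts alone moves that overall median to 0.06, changes the split over all genes from 812 higher and 900 lower to 849 and 560, and leaves 5 of the 6 mitochondrial genes called. The residual spread has 1 degree of freedom and is mostly pooled over genes, and without cell line as a block edgeR called 0 of the 18 members, 4 of them at an unadjusted p under 0.05.

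Scaled counts of both rRNAs were higher with PKF118-310 in each line. Selection of polyadenylated RNA limits what these counts say of total rRNA, and tails were not measured. MT-RNR2, the RNA of the large mitoribosomal subunit, stood at 3102 CPM per kilobase of gene in control and 6151 in treated CUTLL1 cells, and at 4006 and 8107 in TIB153 cells. Both treated libraries lay above both controls. Across lines its level rose 2.0-fold (log2 change 1.0 ± 0.14 SE, edgeR adjusted p = 0.00125).

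MT-RNR1, the RNA of the small mitoribosomal subunit, stood at 811 CPM per kilobase in control and 1438 in treated CUTLL1 cells, and at 2024 and 2869 in TIB153 cells. Here the groups overlapped, because the TIB153 control lay above treated CUTLL1, but each treated library exceeded the control of its own line. The rise across lines was 1.58-fold (log2 change 0.66 ± 0.14 SE, edgeR adjusted p = 0.00964). In TIB153 the log2 ratio of MT-RNR1 was 0.50 against 1.02 for MT-RNR2, so the ratio of MT-RNR2 to MT-RNR1 per length went from 1.98 to 2.83. In CUTLL1 that ratio was 3.82 in control and 4.28 in treated cells.

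**Figure D2:**
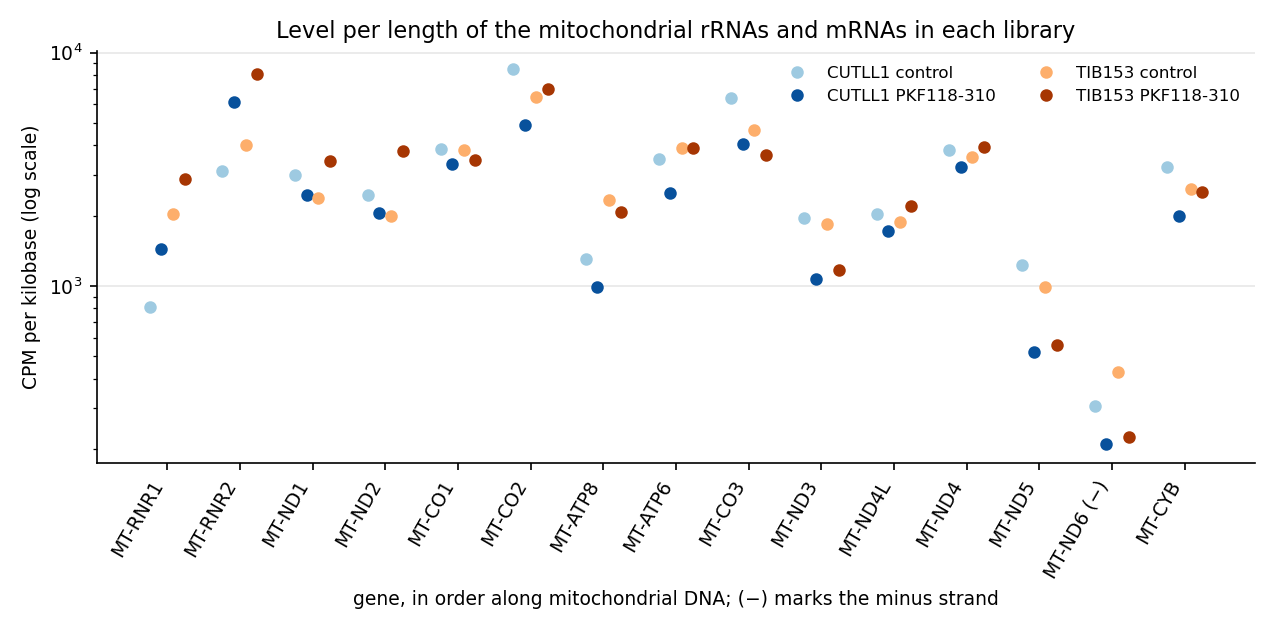
Level of each mitochondrial rRNA and mRNA in CPM per kilobase of gene (log scale), with genes in their order along the chromosome and 1 point per library. The dark points of the treated libraries lie above the pale points of their controls for MT-RNR1 and MT-RNR2 and below them for MT-ND3, MT-ND5 and MT-ND6, where MT-ND5 went from 1229 to 518 and from 994 to 556.

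Complex I, which passes electrons from NADH to ubiquinone, has 7 subunits encoded in mitochondrial DNA. Their mRNAs separated most from each other, but the other complexes have only 1 to 3 such genes. Of the 7, 3 fell across lines, MT-ND5, MT-ND3 and MT-ND6, and 0 rose, where 6.78% of all genes tested fell and 6.11% rose. MT-ND5 encodes a proton-pumping subunit at the far end of the membrane arm. Its level was 1229 CPM per kilobase in control and 518 in treated CUTLL1 cells, and 994 and 556 in TIB153 cells. Both treated libraries lay well below both controls, and the fall was 2.06-fold (log2 change -1.04 ± 0.14 SE, edgeR adjusted p = 0.00115), the largest fall among the mRNAs tested.

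MT-ND3, a small subunit near the junction of the complex's arms, was at 1949 CPM per kilobase in control and 1068 in treated CUTLL1 cells, and at 1845 and 1171 in TIB153 cells. The controls were close to each other and both treated libraries lay below them. The fall was 1.70-fold (log2 change -0.76 ± 0.13 SE, edgeR adjusted p = 0.0032).

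MT-ND6, the only mRNA of the - strand, was at 305 CPM per kilobase in control and 210 in treated CUTLL1 cells, and at 425 and 225 in TIB153 cells. It had the lowest level per length of the 13 mRNAs in all 4 libraries, and its treated libraries lay below both controls. The fall was 1.66-fold (log2 change -0.73 ± 0.13 SE, edgeR adjusted p = 0.00466). The kit was a stranded one, but whether strand was used in counting is not stated in any source used here, so reads from the opposite strand of MT-ND6 cannot be told apart from its own. Selection of polyadenylated RNA also limits what its counts say if its tail is short or absent, and tails were not measured.

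The other complex I mRNAs moved in opposite directions in the lines, and none passed the test across lines. MT-ND2, a membrane-arm subunit, was at 2452 CPM per kilobase in control and 2062 in treated CUTLL1 cells, and at 2000 and 3792 in TIB153 cells. Its log2 ratio was -0.25 in CUTLL1 and 0.92 in TIB153, a difference of 1.17 (1.13 to 1.21 from counting error). MT-ND1, which lies where the arms meet, had log2 ratios of -0.29 and 0.53. Treated TIB153 cells held the highest level of both genes among the 4 libraries.

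MT-ND4 and MT-ND4L, also membrane-arm subunits, are carried on a shared mRNA. MT-ND4 had log2 ratios of -0.24 in CUTLL1 and 0.14 in TIB153, and MT-ND4L had -0.24 and 0.23. Their levels per length kept nearly the same ratio to each other, between 1.79 and 1.90 in the 4 libraries. The ratio of MT-ND2 to MT-ND5 did not: it was 2.0 in control and 3.98 in treated CUTLL1 cells, beside 2.01 and 6.82 for TIB153. The controls of both lines had almost the same ratio and both treated libraries a higher one. This pair has the highest and lowest log2 change across lines of the complex I mRNAs (0.34 and -1.04). A higher ratio in treated cells therefore follows from the choice of pair. Summed over the 7 genes, complex I had a log2 ratio of -0.40 in CUTLL1 and 0.25 in TIB153.

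**Figure D3:**
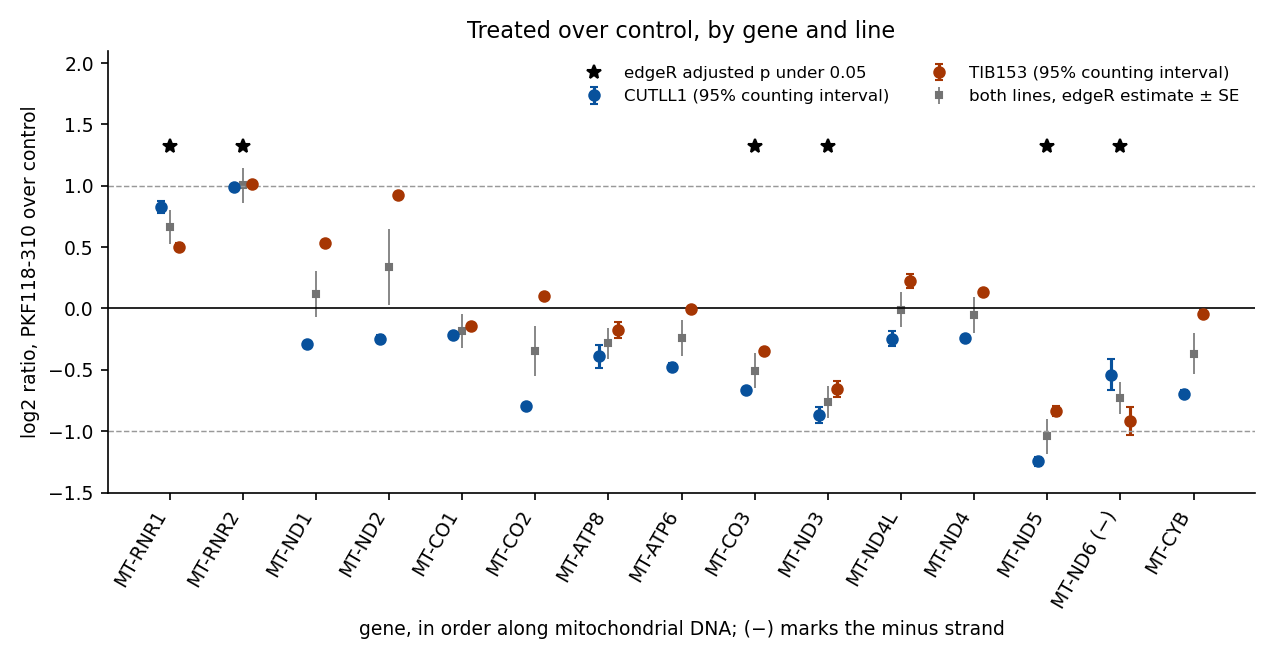
Log2 ratio of PKF118-310 over control for each rRNA and mRNA in gene order, with 95% counting intervals within a line and the edgeR estimate ± SE over both lines; stars mark an adjusted p under 0.05 and dashed lines mark 2-fold. All 13 mRNAs lie below 0 in CUTLL1, while MT-ND1, MT-ND2, MT-CO2, MT-ND4L and MT-ND4 lie above 0 in TIB153.

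Complex III passes electrons on to cytochrome c, and MT-CYB (cytochrome b) is its only mitochondrially encoded subunit. MT-CYB was at 3229 CPM per kilobase in control and 1995 in treated CUTLL1 cells, and at 2595 and 2519 in TIB153 cells. The level was thus lower in treated CUTLL1 cells (log2 ratio -0.69) and nearly equal in TIB153 cells (-0.04, -0.07 to -0.02). Across lines the log2 change was -0.37 ± 0.17 SE (edgeR adjusted p = 0.167).

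Complex IV, cytochrome c oxidase, takes its catalytic core from MT-CO1, MT-CO2 and MT-CO3. MT-CO3 fell across lines: its level was 6411 CPM per kilobase in control and 4040 in treated CUTLL1 cells, and 4644 and 3657 in TIB153 cells. Both treated libraries were below both controls, by 1.42-fold across lines (log2 change -0.51 ± 0.14 SE, edgeR adjusted p = 0.0336). It was the call nearest the threshold, and with scaling by total counts its adjusted p was 0.0705.

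MT-CO2 had the highest level per length of the mRNAs in each library, at 8470 and 4883 CPM per kilobase in control and treated CUTLL1 cells and 6480 and 6970 in TIB153 cells. Treatment went with a lower level in CUTLL1 (log2 ratio -0.79) and a slightly higher level in TIB153 (0.11). MT-CO1 had log2 ratios of -0.22 and -0.14, and neither gene passed the test across lines (edgeR adjusted p = 0.302 and 0.423). Summed over the 3 genes, complex IV had a log2 ratio of -0.53 in CUTLL1 and -0.11 in TIB153.

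Complex V makes ATP from the proton gradient, and MT-ATP6 and MT-ATP8 encode parts of its membrane sector. These genes are carried on a shared mRNA. MT-ATP6 was at 3490 CPM per kilobase in control and 2509 in treated CUTLL1 cells, and at 3896 and 3882 in TIB153 cells, so that the TIB153 libraries did not differ beyond counting error. MT-ATP8 had log2 ratios of -0.39 and -0.18. Neither gene passed the test (edgeR adjusted p = 0.309 for MT-ATP6 and 0.157 for MT-ATP8). The 46 shared bases make up 22.2% of MT-ATP8 and 6.75% of MT-ATP6, so the level per length of MT-ATP8 can depend on how reads in them were assigned. That assignment was not varied. The ratio of MT-ATP6 to MT-ATP8 per length was 2.69 in control and 2.53 in treated CUTLL1 cells, and 1.665 and 1.87 in TIB153 cells.

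Within CUTLL1 all 13 mRNAs were lower beyond counting error, where 23.9% of all genes tested were, and both rRNAs were higher, where 23.3% were. A 2-fold limit was passed by MT-ND5 (log2 ratio -1.25, -1.29 to -1.21) and, at 28 and 13 counts, by MT-TT, both lower, and by 0 of the 18 members upward. Over all genes tested 2.21% were 2-fold lower and 4.8% 2-fold higher. A 1.5-fold limit was passed downward by these 2 and by MT-ND3, MT-CO2, MT-CO3 and MT-CYB (6.39% of genes) and upward by both rRNAs (9.49%).

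Within TIB153, 7 mRNAs were lower and 5 higher beyond counting error, against 28.7% and 25.2% of genes. MT-RNR2 was the only one of the 18 past 2-fold (log2 ratio 1.02), where 5.47% of genes were 2-fold higher and 2.12% lower. At 1.5-fold MT-RNR2 and MT-ND2 were higher (11.4% of genes) and MT-ND3, MT-ND5 and MT-ND6 lower (9.81%). MT-ND1, MT-ND2, MT-CO2, MT-ND4L and MT-ND4 were lower in CUTLL1 and higher in TIB153. Over all genes tested, 3.4% differed in sign between the lines beyond counting error. With 1 library per group the difference between the lines was not tested.

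The order of the 13 mRNAs by level per length was much the same in both controls, with MT-CO2 and MT-CO3 highest and MT-ND5 and MT-ND6 lowest. MT-CO2 exceeded MT-ND6 by 27.7 and 15.2 times in control CUTLL1 and TIB153 cells and by 23.2 and 31.0 times in the treated cells. In treated TIB153 cells MT-ND4, MT-ATP6 and MT-ND2 stood above MT-CO3. Neighbours in the order were often close, such as MT-ATP6 and MT-CO1 in control TIB153 cells at 3896 and 3824 CPM per kilobase, and with 1 library a group such an order has no replicate check.

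Over the rRNAs and mRNAs, log2 ratios tended to be higher for genes early on the + strand, with exceptions among the mRNAs. The rRNA genes come first, MT-ND1 and MT-ND2 follow, and MT-ND5 is near the end. Over the 12 mRNAs of the + strand, Spearman's rho between gene order and log2 ratio was -0.36 in CUTLL1 and -0.44 in TIB153. Adding the 2 rRNAs, which come first and had already been seen to rise, gave -0.60 and -0.62 over 14 genes. The larger coefficients thus restate in part the rise of the rRNAs. These genes share libraries and precursor RNA, so the coefficients are descriptions without a p-value. MT-CYB, which comes last, lay well above MT-ND5. In CUTLL1, MT-CO1 (-0.22), MT-ND4 (-0.238) and MT-ND4L (-0.245) lay above MT-ND2 (-0.250) and MT-ND1 (-0.29), though they come later.

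Genes with either kind of end were found among those that fell. The 6 mRNAs with an incomplete stop had a median log2 ratio of -0.48 in CUTLL1 and 0.05 in TIB153, and the 7 with a complete stop had -0.48 and -0.14. The 7 include MT-ATP8 and MT-ND4L, whose ends lie inside MT-ATP6 and MT-ND4 and so are not ends of an mRNA. MT-ND3 and MT-CO3, which fell, and MT-ND1 and MT-ND2, which did not, all have an incomplete stop. MT-ND5 and MT-ND6 fell and were classed as having complete stops, which means only that the gene is a whole number of codons long. MT-ND5 ends in TAA, but MT-ND6 ends in AGG and MT-CO1, of the same class, in AGA.

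The 22 tRNAs were almost unread. Their genes are 59 to 75 bases long, and mature tRNAs, which carry amino acids to the mitoribosome, have no poly(A) tail. They held 110 and 100 counts in control and treated CUTLL1 cells and 66 and 104 in TIB153 cells. MT-TK, MT-TG, MT-TR, MT-TH, MT-TS2 and MT-TL2 had no read in any library, and the largest count of any tRNA was 29. A count of 0 allows up to 3 reads, or 0.406 CPM in the smallest library. MT-TP, on the - strand, alone had at least 10 reads in each library, with 28 and 29 counts in control and treated CUTLL1 cells and 27 and 28 in TIB153 cells. MT-TP, MT-TQ and MT-TT were tested, and 0 of the 3 passed in edgeR (0 at an unadjusted p under 0.05), while DESeq2 gave them no adjusted p. MT-TI and MT-TF did not pass the filter on low counts. From control to treated cells, MT-TI went from 2 to 6 reads in CUTLL1 but from 1 to 19 in TIB153, while MT-TF went from 16 to 3 and, in TIB153, from 2 to 10.

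Nuclear copies of mitochondrial genes can take or give reads. Of 407 annotated copies 15 had at least 10 reads, and all copies together held between 1.75% and 2.54% as many reads as the 37 genes. Most of these reads (92.2%) lay in MTATP6P1, MTND2P28 and MTCO1P12 on chromosome 1. They are 98.5%, 98.4% and 98.7% identical to MT-ATP6, MT-ND2 and MT-CO1, and 46.7% of the 50-base windows of MT-ATP6 occur in MTATP6P1 without a difference.

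The log2 ratios of MTATP6P1 were -0.54 in CUTLL1 and 0.05 in TIB153, beside -0.48 and -0.01 for MT-ATP6. MTND2P28 had -0.32 and 0.76, beside -0.25 and 0.92 for MT-ND2. MTCO1P12 had -0.92 in CUTLL1, further from 0 than the -0.22 of MT-CO1, and -0.11 in TIB153. Its reads were 3.9% of those of MT-CO1 in control CUTLL1 cells but 0.376% in control TIB153 cells. Other genes shared windows with annotated copies too: 30.6% of the 50-base windows of MT-CO3, 28.98% for MT-CO2, 22.1% for MT-ND1, 17.9% for MT-ND6, 14.04% for MT-RNR2 and 4.77% for MT-ND5. Values of all these genes are uncertain by the reads that copies can share, 4 of the 6 called genes among them. Copies were sought by symbols that begin with MTND, MTCO, MTATP, MTCYB or MTRNR2L. Copies of MT-RNR1, also a called gene, were therefore not sought. MT-ND3 and MT-ND4L had 0% of their windows in any annotated copy.

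Nuclear genes for the same complexes were read from the same fit. For complex I, 4 of 36 nuclear subunits tested fell and 0 rose (median log2 change -0.21), where 6.78% of all genes tested fell. With scaling by total counts, and likewise in DESeq2's Wald test, 0 of the 36 were called. NDUFV3, which docks at the NADH-binding module, fell the most of those called (log2 change -0.65 ± 0.19 SE, edgeR adjusted p = 0.0338), beside NDUFS6 (-0.48), NDUFA6 (-0.51) and NDUFA5 (-0.46). For complex V, 4 of 15 fell and 0 rose (median -0.29): ATP5MC1, a gene for the rotating c-ring (log2 change -0.61 ± 0.15 SE, edgeR adjusted p = 0.0196), ATP5MF (-0.64), ATP5PD (-0.49) and ATP5F1C (-0.41). Scaling by total counts left ATP5MC1 called, and DESeq2 called 0 of the 15.

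In edgeR 0 of the 4 subunits of complex II, 0 of 9 nuclear subunits of complex III and 0 of 11 of complex IV passed, with 0, 0 and 1 at an unadjusted p under 0.05 and 0 in DESeq2. Their smallest p-values belonged to SDHA (log2 change -0.13) and SDHC (-0.10), CYC1 (-0.26) and UQCRFS1 (-0.26), and COX5A (-0.30) and COX4I1 (0.11). Complex II, which has no mitochondrially encoded subunit, had a median log2 change of -0.05. No nuclear subunit called had a fall as large as that of MT-ND3, MT-ND5 or MT-ND6.

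**Figure D4:**
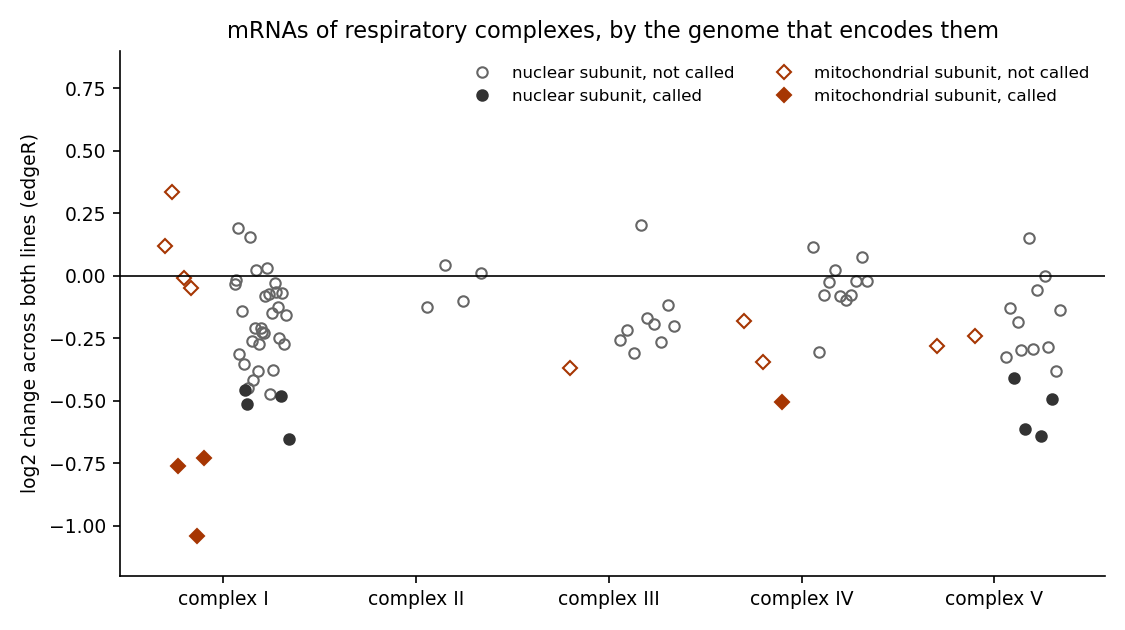
Log2 change across both lines (edgeR) for each tested mRNA of complexes I to V, with mitochondrially encoded subunits as diamonds and nuclear subunits as circles, filled where the adjusted p was under 0.05. Mitochondrial subunits of complex I range from -1.04 to 0.34, and the called nuclear subunits of complexes I and V lie between -0.65 and -0.41.

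Factors that act on mitochondrial DNA and RNA changed in small numbers, and their counts are to be read against the 6.78% of all genes that fell and the 6.11% that rose. Of 10 genes for transcription of mitochondrial DNA, TFAM, the factor that packs this DNA and starts its transcription, was called: its log2 ratio was -0.38 in CUTLL1 and -0.48 in TIB153 (log2 change -0.43 ± 0.12 SE, edgeR adjusted p = 0.0349). That call was lost with scaling by total counts (adjusted p = 0.071), in lane 2 alone (0.0667) and in DESeq2 (0.216). Of 14 replication genes, 2 fell, SSBP1 (-0.50), the single-strand binding protein, and RNASEH1 (-0.61), which removes RNA from DNA hybrids. TK2, the mitochondrial thymidine kinase, rose with log2 ratios of 0.50 in CUTLL1 and 1.53 in TIB153.

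Of 20 genes for mitochondrial RNA processing and decay, 2 fell and 0 rose. They were ELAC2 (log2 change -0.42), which cuts precursors at the 3′ end of tRNAs, and PNPT1 (-0.48), the ribonuclease of the mitochondrial degradosome. Of 15 genes that modify mitochondrial tRNA and rRNA, PUS1, a pseudouridine synthase, fell (-0.48). PPARGC1B, a coactivator of mitochondrial biogenesis, fell with log2 ratios of -0.68 and -1.18, alone among 7 regulators tested. Among 10 markers of mitochondrial mass, VDAC1, the channel of the outer membrane, fell (log2 change -0.87 ± 0.12 SE, edgeR adjusted p = 0.00125), and the median of the list was -0.27. These 151 nuclear genes gave 1 rise and 16 falls with TMM scaling but 1 and 5 with scaling by total counts, and DESeq2's Wald test called VDAC1 alone. The calls that total counts left were TK2, SSBP1, RNASEH1, PPARGC1B, VDAC1 and ATP5MC1, so those of TFAM, ELAC2, PNPT1, PUS1 and all the complex I subunits were lost. The part of these factors in the mitochondrial RNA levels was not tested.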

How the data were processed

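CUTLL1 and TIB153 cells were analysed as 4 libraries in 8 lane files. The authors deposited whole-number counts of reads per gene and lane, not normalized. HISAT2, HTSeq and DESeq2 and the build hg38 are listed, without versions or roles, in the submitters' processing notes. RNA was selected on poly(T) beads, which limits what the counts say of RNAs with short or no tails. The authors' tables of their own comparisons (fold changes, p-values and 8 count columns) were not used: the columns name control and treated samples in duplicate for each line, equal neither the lanes nor their sums and match no sample's labels.

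Lanes were summed. R 4.3.3 with edgeR 4.0.16 fitted the quasi-likelihood model after filterByExpr and TMM scaling, with cell line as a block (it pairs the libraries of the same line), on 13280 genes, and a gene was called at an adjusted p under 0.05. Duplicate samples of a line were therefore not analysed here. The p-values rest on a spread with 1 residual degree of freedom in the lane files, mostly pooled over genes. Within a line, log2 ratios used a pseudocount of 0.5 counts and exact binomial 95% intervals, and shares of counts used Wilson intervals. Intervals and the limit of 3 counts for a count of 0 cover counting error only. A call within a line needed 2-fold and an interval that excludes no change. DESeq2 1.42.0, other scalings, no filter, no block, single lanes and a 1.5-fold limit were alternatives. The scripts were tested on simulated data. Gene lengths, sequences and copies came from GENCODE transcripts (hg38), read with Biopython 1.88.

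The members and all gene lists were chosen with earlier results of these data known. All rRNAs and mRNAs were named, tRNAs where each library had at least 10 counts, up to 4 called genes (otherwise 2) with the smallest p of each nuclear list, and the 3 copies with the most reads. CD3G, CD247, CD7, PECAM1, CD79A, MS4A1 and EPCAM come from the marker lists, and other tRNAs were named after their counts were seen.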

Additional observations from a re-analysis of the deposited data

Results flagged for a closer look

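In 5 mRNAs, counted 1 per gene, the treated library lay below its control in CUTLL1 and above it in TIB153, beyond counting error in each. Of these, MT-ND4L and MT-ND4 are carried on a shared mRNA. The log2 ratios in CUTLL1 and TIB153 were -0.29 and 0.53 for MT-ND1, -0.25 and 0.92 for MT-ND2, -0.79 and 0.11 for MT-CO2, -0.24 and 0.23 for MT-ND4L, and -0.24 and 0.14 for MT-ND4. With 1 library per group the difference between the lines was not tested, and 3.4% of all genes tested had opposite signs beyond counting error. Leaving out either lane kept the direction of these ratios in both lines.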

How the results depend on the processing

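The 6 mitochondrial genes called by edgeR were the same 6 with DESeq2 size factors, with nuclear genes setting the scaling, in lane 1, in lane 2 and with DESeq2's Wald test. Scaling by total counts gave 2 higher and 3 lower (MT-CO3 was lost), and no filter gave 3 and 5 (MT-TI and MT-CYB were added).

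Without the replicate block (cell line left out of the model), edgeR called 0 mitochondrial genes higher and 0 lower, and 0 of all 13280 genes, with 889 at an unadjusted p under 0.05. For the nuclear lists, 1 higher and 16 lower became 0 and 0 without the block, 1 and 5 with scaling by total counts and 0 and 1 with DESeq2's Wald test, which called 194 genes higher and 249 lower over all genes. In the lane files the lines are the only replication: leaving out a line leaves the log2 ratio of the other, with no test. The causes of these losses were not tested.

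Signs turned for 5 values near 0 that were not called or not tested: MT-ND4L across lines (0.048 with total counts, 0.030 in lane 1, 0.00089 without the block), MT-ND4 (0.0057 with total counts), MT-TP (0.0092 in lane 1), and in TIB153 complex III (0.022 with total counts) and complex V (0.034 with total counts, 0.0084 in lane 2).

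For summed rRNA, total counts gave 1.02 in CUTLL1 and 0.98 in TIB153, lane 1 gave 0.94 in TIB153, and lane 2 gave 0.99 and 0.93. For summed mRNA, total counts gave -0.44 in CUTLL1 and 0.12 in TIB153, lane 1 gave -0.47 and 0.069, and lane 2 gave 0.076 in TIB153. At 1.5-fold, CUTLL1 had 2 genes higher and 6 lower (0 and 2 at 2-fold) and TIB153 2 and 3 (1 and 0).

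The percent of all counts in control and treated CUTLL1 and control and treated TIB153 cells was 3.64, 2.68, 3.21 and 3.47 for mRNAs alone and 4.29, 3.85, 4.09 and 5.15 with nuclear copies added. Depth limits the tRNAs, with at most 29 reads a gene.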
